A study of Mus musculus with 15 samples.

Results

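The genes described here are 44 mouse genes of the sperm axoneme and of motile cilia, out of 23510 gene IDs in the deposited table. They were taken by name, from a list of axonemal dyneins, radial spoke proteins, central apparatus proteins, cilia and flagella associated proteins, tektins, ruler and nexin-dynein proteins and dynein assembly factors. All 44 were found. RNA was sequenced from 15 testis libraries of outbred ICR mice in 5 groups of 3. The labels give the group Con as control, without saying what these mice received, and no age is given here for them. In the other groups, lentivirus was injected into the testes of 5-week-old males and tissue was collected 10 days later. MNC received the control hairpin shNC, while M1, M3 and M5 each received a mix of 3 hairpins against the muscarinic acetylcholine receptor of that name. Every group other than Con therefore shares the injection and the virus, and the virus was placed in a whole testis rather than in 1 cell type.

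The axoneme is the microtubule core of the sperm tail and of motile cilia, built from 9 doublets around a central pair. Outer and inner dynein arms, whose heavy chains are motor proteins, slide the doublets, while radial spokes and the central apparatus regulate that sliding and the nexin-dynein complex limits it. In the testis the tail is assembled in round and elongating spermatids, and a lack of many of these proteins leaves sperm that cannot swim.

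Values are FPKM, fragments mapped to a gene scaled by its length and by the library's mapped total, so that levels can be compared between genes. Depth is unknown, since the table holds no counts. The 3 targeted receptor genes were near the lower end of the scale, at 0.06 to 0.17 FPKM for Chrm1, 0.01 to 0.11 for Chrm3 and 0.19 to 0.43 for Chrm5 over the 15 libraries. The mean of Chrm5 was 0.32 ± 0.0866 FPKM in the M5 libraries and 0.363 ± 0.115 in those of MNC (SD, n = 3; exact permutation test, two-sided, p = 0.5, where 0.1 is the smallest p that 3 against 3 allow). The same exact test gave p = 0.9 for Chrm1 in M1 and p = 0.3 for Chrm3 in M3, so transcripts of the targets do not check the group labels. Nothing in the labels says that each library came from a separate animal, and p-values then measure only the spread between these libraries. Summed markers of spermatocytes were at 889 FPKM or more and those of elongating spermatids at 12381 or more in every library, as in testis. Of 10 markers of multiciliated cells such as those of the airway, 6 had a mean of 1 FPKM or more. All 10 summed to between 229 and 341 FPKM over the libraries. Mcidas and Gmnc, which program those cells, were at no more than 0.09 and 0.15 FPKM, while Foxj1 had a mean of 35.8.

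Most of the 44 genes were abundant. A mean of over 100 FPKM was measured for 10 of them, 10 to 100 FPKM for 30, 1 to 10 FPKM for 2 and under 1 FPKM for 2. The radial spoke gene Rsph1 had the highest mean, 772 FPKM (GRCm38, chr17:31255019-31277296). It was followed by Cfap206 at 372 FPKM, by the dynein assembly factor Dnaaf1 at 299, by the outer arm heavy chain Dnah8 at 278 and by Tekt1 at 229, a tektin of the doublet wall. Within the other roles the highest means were those of Cfap69 in the central apparatus at 133 FPKM, level with Spag6l, of Ccdc39 in the ruler and nexin-dynein group at 90.8, of Dnali1 among the smaller dynein chains at 89.8 and of Dnah12 among the inner arm heavy chains at 19.4.

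The 2 genes under 1 FPKM are known from airway cilia. Dnah5, an outer arm heavy chain of airway cilia, ranged from 0.2 to 0.41 FPKM and Rsph4a, a radial spoke head gene of the same cilia, from 0.06 to 0.17. By contrast Dnah8 and Dnah17, outer arm heavy chains of sperm, had means of 278 and 44.8 FPKM. Rsph6a, of the radial spoke in sperm, had a mean of 91.5 FPKM. The next lowest were the light chain Dnal1 at 5.41 FPKM, the inner arm heavy chain Dnah10 at 8.71 and the central apparatus gene Cfap54 at 10.1. The 42 genes with a mean of 1 FPKM or more were tested, and Dnah5 and Rsph4a were not.

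**Figure D1:**
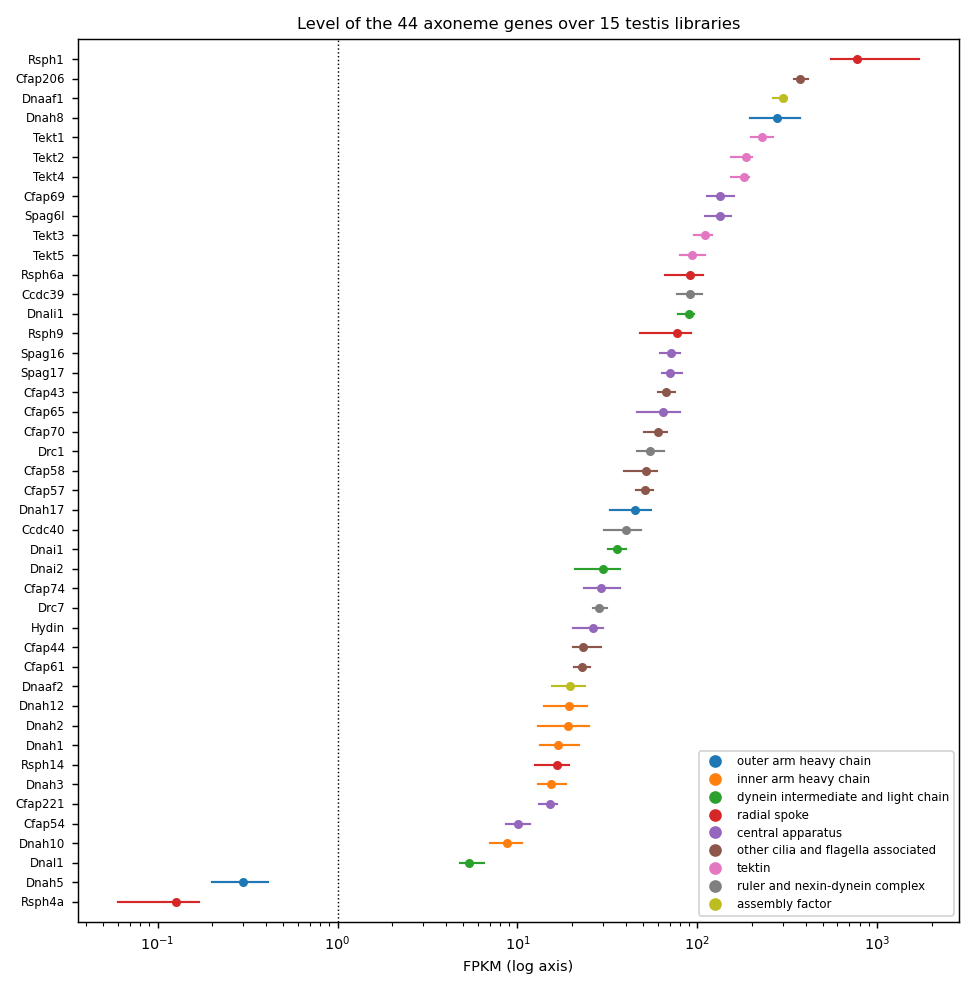
Level of each of the 44 genes, in FPKM on a log axis. Dots are means over the 15 libraries, lines run from the lowest to the highest library, colours give the role and the dotted line marks 1 FPKM. The genes span from 0.127 FPKM for Rsph4a to 772 for Rsph1, which also has the longest line among the abundant genes.

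The levels varied little. The median coefficient of variation over the 15 libraries was 9.8% for the 42 genes, beside 14.8% for all 14514 genes tested. These sets were not matched for level, and most of the 42 genes are abundant. It was under 10% for 22 of the 44 and under 20% for 41. Dnaaf1 varied least, at 4.75%, and Rsph1 most, at 39.8%. The 5 genes with the largest ratio of highest to lowest group mean were Rsph1 at 2.03, Dnah2 at 1.65, Rsph4a at 1.61, Cfap65 at 1.59 and Dnah1 at 1.49. The ratio of Rsph4a rests on group means of only 0.0933 FPKM in M5 and 0.15 in Con, from values given to 2 decimals.

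RFX transcription factors, which switch on many cilium genes, bind a sequence called the X-box. A form of it, GT and AT parted by any 4 bases and then AAC after any 3 more, was searched on both strands in RefSeq promoters of GRCm38.p6, from 250 bases before to 50 bases after each start. Of the 38 genes of the set with a promoter entry, 8 held it, 21.1%, beside 2.99% of 27025 genes: Cfap221, Cfap44, Cfap57, Cfap70, Dnaaf2, Dnah17, Drc7 and Tekt1. A match of letters is a description and not a binding site. The matches of Dnah17 and Dnaaf2 are shown because both genes were called in M5 against MNC, and those of Cfap44 and Tekt1 because they lie close to the start, as do all but that of Dnah17. Each line runs 5′ to 3′ along the gene's own strand, with the motif or its reverse complement in capitals.
Dnah17 (chr11:118129425-118129454, minus strand, motif centre 220 bases before the start): ttacttttGTGGTCATAACAACccaggggt
Dnaaf2 (chr12:69198425-69198454, minus strand, 10 bases before the start): tcccaggcGTTACTATGGCAACaaagcacg
Cfap44 (chr16:44394764-44394793, plus strand, 20 bases before the start): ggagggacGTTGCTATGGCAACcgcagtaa
Tekt1 (chr11:72361876-72361905, minus strand, 8 bases before the start): tccgtccgGTTGCCATAGAGACcgcagttt
The sequences of Dnaaf2 and Cfap44 fit the motif on both strands, that of Dnah17 on the gene's strand and that of Tekt1 on the opposite strand.

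M5 and MNC were compared to see which axoneme transcripts differ after knockdown of the M5 receptor. Calls were made with limma at a threshold of 0.05 on the p adjusted by Benjamini-Hochberg over the 14514 genes. Of the 42 genes, 4 were called, 9.52%, beside 5.65% of all genes tested. Cfap65, Dnah17 and Tekt5 were lower in M5, where 2.89% of all genes were called lower, and Dnaaf2 was higher, as were 2.76% of all genes.

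Cfap65, a central apparatus gene needed for a well-formed sperm tail, measured 48, 53.1 and 46 FPKM in M5 replicates 1 to 3, against 62.7, 67.4 and 71.6 in the MNC replicates. Every M5 library lay below every MNC library, and M3 replicate 3, at 49.1, lay among those of M5. The log2 difference was -0.45 (SE 0.0786, limma, adjusted p = 0.0335).

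Dnah17, an outer arm heavy chain of sperm, measured 38.9, 37.1 and 32.8 FPKM in M5, against 46.6, 47 and 50.4 in MNC. Its groups did not overlap, and the Con libraries were higher than both, at 53.1 to 55.4 FPKM. The log2 difference of M5 from MNC was -0.40 (SE 0.0787, limma, adjusted p = 0.0424). Dnah8, the other outer arm heavy chain tested, was not called, with a log2 difference of 0.08. It was at 231, 314 and 242 FPKM in M5 and 195, 290 and 264 in MNC.

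Tekt5, a tektin of the sperm tail, measured 80.1, 81.7 and 79.6 FPKM in M5, against 97.3, 103 and 111 in MNC. The 3 M5 libraries were the lowest of all 15. The log2 difference was -0.36 (SE 0.0618, limma, adjusted p = 0.0319).

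Dnaaf2, which helps to assemble dynein arms in the cytoplasm, measured 21.6, 21.9 and 20.7 FPKM in M5, against 17, 17 and 17.8 in MNC. M5 lay above MNC without overlap, but within the range of Con, 20.7 to 23.6 FPKM. The log2 difference was 0.29 (SE 0.0633, limma, adjusted p = 0.0499) against MNC and -0.02 (limma, adjusted p = 0.859) against Con. Exons of Dnaaf2 share 22.3% of their length with Gm49383 on the same strand and 32.7% with an antisense gene, and whether reads were counted by strand is not stated, so its level is uncertain. The same limit holds for Tekt2, Dnaaf1 and Ccdc39, with 20.8%, 20.7% and 16.9% of exonic bases shared with a gene on the opposite strand.

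By role, the 5 inner arm heavy chains were all lower in M5, by log2 differences from -0.41 for Dnah2 to -0.19 for Dnah3, and none was called. Dnah2 was at 15.7, 15.2 and 13.1 FPKM in M5 and 19.1, 19.3 and 20.6 in MNC (limma, adjusted p = 0.0506). Rsph6a, a radial spoke head gene of sperm, was at 80.5, 72.3 and 66.4 FPKM in M5 and 99.2, 89.3 and 107.7 in MNC (log2 difference -0.43, SE 0.0974, limma, adjusted p = 0.0544). These genes stood just outside the threshold, although their groups did not overlap. The 7 other cilia and flagella associated genes lay between -0.03 and 0.11 and the 4 ruler and nexin-dynein genes between -0.21 and 0.11, with 0 called in either role.

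Over the 42 genes the median log2 difference was -0.066, with 16 higher and 26 lower, beside a median of 0.025 over all genes tested. M5 and MNC did not overlap for 11 genes lower and 4 higher in M5, while 15.5% and 16.6% of all genes did so in each direction. The absolute difference was under 0.2 for 28 of the 42 genes.

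**Figure D2:**
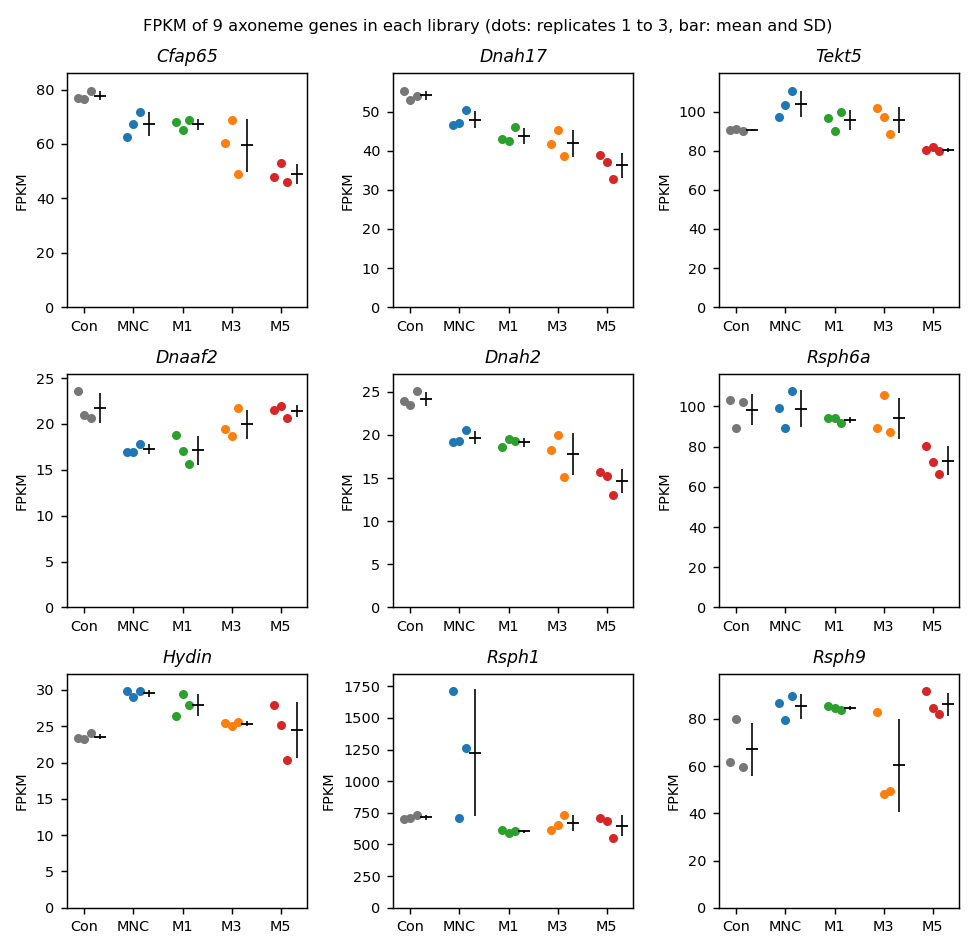
FPKM of 9 of the genes in each library. Dots are replicates 1 to 3 of a group and the bar beside them is the mean with its SD. M5 lies below MNC for Cfap65, Dnah17, Tekt5, Dnah2 and Rsph6a and above it for Dnaaf2, while Rsph1 and Rsph9 split within groups.

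M5 replicate 3 stood apart. It was the lowest library for 26 of the 42 genes, while 8.94% of all genes tested were lowest there. Its mean log2 deviation was -0.18 for the 42 genes and 0.13 for all genes tested. For somatic markers the deviation was 0.49 for 10 Sertoli cell, 0.87 for 8 Leydig cell and 1.07 for 7 macrophage genes. For germ cell markers it was 0.15 in spermatogonia, 0.04 in spermatocytes, -0.07 in round spermatids and -0.14 in elongating spermatids. With M5 replicate 3 left out, 4 of the 42 genes were called in M5 against MNC, Dnaaf2 higher and Tekt5, Dnah17 and Dnah2 lower. The median became -0.010. In bulk tissue, fewer cells of a type and less RNA per cell cannot be told apart. The summed level of 6 red blood cell markers was 148 to 491 FPKM in M5 and 21.8 to 35.4 in MNC, with Slc4a1 under 1 FPKM on average, and their part in these differences was not tested.

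GC content moved with the same contrast. Across the 42 genes, Spearman's rho between GC content and the difference of M5 from MNC was -0.376, and across 13364 genes it was -0.453, as a description over genes that share libraries. By library, the rho of log2 deviation with GC content was -0.482, -0.438 and -0.084 in M5 replicates 1 to 3, against 0.150, 0.287 and 0.398 in those of MNC. In the 9 libraries of the other groups it ran from -0.334, in M3 replicate 3, to 0.226. With the GC trend removed, 0 of the 42 genes were called, and 0 were called with the libraries centred on their medians. The shares of all genes called under these settings are not given here. The differences kept their direction under both, at -0.386 and -0.486 for Cfap65, -0.309 and -0.435 for Dnah17, -0.245 and -0.399 for Tekt5 and 0.397 and 0.256 for Dnaaf2. Leaving out M5 replicate 1 or 2 or MNC replicate 2 or 3 also gave 0 calls, and leaving out MNC replicate 1 gave 2.

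**Figure D3:**
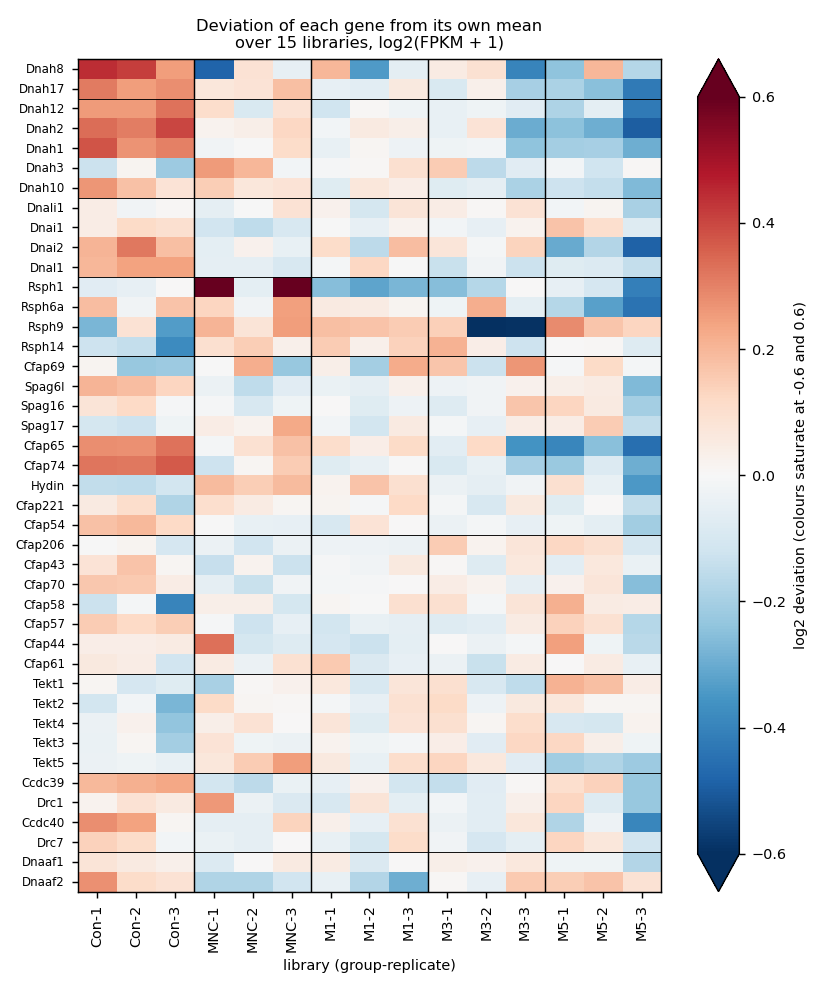
Deviation of each tested gene from its own mean over the 15 libraries, in log2(FPKM + 1), with red above and blue below the mean. Columns are libraries by group, rows are the 42 genes ordered by role and level, and thin lines part the roles. M5 replicate 3 is blue over most rows, the Con columns are red in the heavy chain rows other than Dnah3, and Rsph1 and Rsph9 stand out by single libraries.

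The difference between the knockdowns was then tested directly. In M5 against M1, 4 of the 42 genes were called, all lower in M5, beside 6.75% of all genes in either direction and 3.52% lower. Cfap65 was at 65 to 68.6 FPKM in M1, above its 46 to 53.1 in M5 (log2 difference -0.45, SE 0.0647, limma, adjusted p = 0.0183). Dnah2 was at 18.6 to 19.5 FPKM in M1 and 13.1 to 15.7 in M5 (log2 difference -0.37, SE 0.0814, limma, adjusted p = 0.0487). Rsph6a was at 91.7 to 94.4 FPKM in M1 and 66.4 to 80.5 in M5 (log2 difference -0.35, SE 0.0739, limma, adjusted p = 0.0428). Tekt5 was at 90.1 to 99.8 FPKM in M1 and 79.6 to 81.7 in M5 (log2 difference -0.24, SE 0.0527, limma, adjusted p = 0.0461). For all 4 genes the groups did not overlap, as for 15% of all genes in that direction. The GC correction, the centring and leaving out any one M1 library each left 0 called, and leaving out M5 replicate 1 or 2 left 1. Shares of all genes called under these alternatives are not given. Over the 14 alternatives all 4 genes kept their direction, with log2 differences from -0.52 to -0.406 for Cfap65, -0.437 to -0.292 for Dnah2, -0.426 to -0.252 for Rsph6a and -0.314 to -0.182 for Tekt5. M5 against M1 shares its M5 libraries with M5 against MNC.

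Between M5 and M3, limma called 0 of the 42 genes and 0.0138% of all genes, and 4 of the 42 had an unadjusted p under 0.05, beside 14.3% of all genes. The lowest p belonged to Dnai2, an outer arm intermediate chain, at 20.9 to 26 FPKM in M5 and 29.3 to 32.6 in M3 (log2 difference -0.39, SE 0.0956, limma, adjusted p = 0.338). Tekt5 and Rsph6a came next, with log2 differences of -0.25 and -0.36. In Tekt5 the groups did not overlap, with M3 at 88.5 to 101.7 FPKM.

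Against MNC, M1 and M3 each had 0 of the 42 genes called. limma called 0.0% of all genes in M1 and 0.00689% in M3. At an unadjusted p under 0.05 there were 2 of the 42 genes in M1 and 7 in M3, beside 5.94% and 9.43% of all genes. The median log2 difference over the 42 genes was -0.011 in M1 and -0.022 in M3, and 41 and 38 of the genes differed by under 0.2.

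In M1 the lowest p belonged to Rsph1, at 614, 589 and 606 FPKM against 1711, 705 and 1260.1 in MNC (log2 difference -0.93, SE 0.303, limma, adjusted p = 0.819). MNC replicate 2 lay close to the M1 libraries. Dnai1, the other outer arm intermediate chain, was at 34.4 to 36.2 FPKM in M1 and 32 to 33.3 in MNC, a log2 difference of 0.11. Dnah17 was at 42.5 to 46.2 FPKM in M1 and 46.6 to 50.4 in MNC, a log2 difference of -0.13. Neither passed the test.

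In M3 the lowest p belonged to Hydin, a large central apparatus gene, at 25.4, 25 and 25.7 FPKM against 29.8, 29 and 29.8 in MNC (log2 difference -0.21, SE 0.054, limma, adjusted p = 0.518). All M3 libraries lay below all MNC libraries, and above the Con libraries at 23.3 to 24 FPKM. Dnah10 was at 7.46 to 8.31 FPKM in M3 and 9.11 to 9.69 in MNC, a log2 difference of -0.20. Rsph1 followed with a log2 difference of -0.79.

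**Figure D4:**
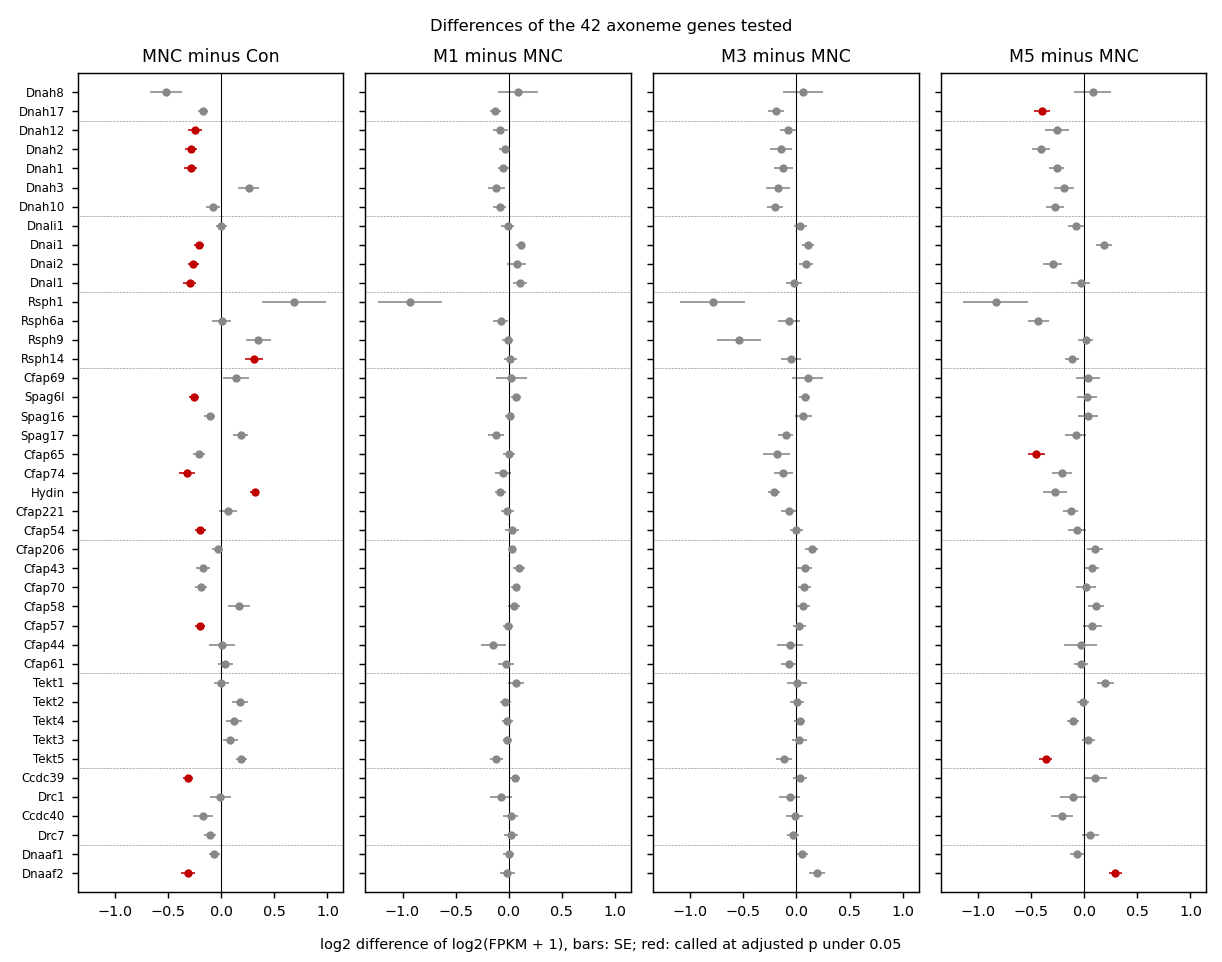
Log2 difference of each of the 42 tested genes between MNC and Con and between each knockdown and MNC. Points are differences of log2(FPKM + 1), bars are standard errors and red marks genes called by limma at an adjusted p under 0.05, 14, 0, 0 and 4 from left to right.

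MNC was compared with Con to see how the injected control differs from the control without a named treatment. Here 14 of the 42 genes were called, 12 lower and 2 higher in MNC, beside 20.4% of all genes, 12.4% lower and 8.03% higher. The median log2 difference was -0.070 for the 42 genes and -0.095 for all genes tested. Of the lower genes, 6 encode dynein chains (Dnah1, Dnah2, Dnah12, Dnai1, Dnai2 and Dnal1) and 3 belong to the central apparatus (Cfap74, Spag6l and Cfap54), beside Dnaaf2, Ccdc39 and Cfap57. Hydin and Rsph14 were higher.

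Cfap74 was at 36.1, 36 and 37.4 FPKM in Con and 26.3, 29 and 32.1 in MNC (log2 difference -0.32, SE 0.0766, limma, adjusted p = 0.0365). Ccdc39, part of the ruler that spaces dyneins and spokes along the doublet, was at 104, 105 and 106 FPKM in Con and 83.6, 81.1 and 88 in MNC (log2 difference -0.31, SE 0.0456, limma, adjusted p = 0.0175). In both genes every Con library was above every MNC library. Dnaaf2 differed by -0.31, Dnal1 by -0.30, Dnah1 by -0.29, Dnah2 by -0.28, Dnai2 by -0.26 and Spag6l by -0.26 on the log2 scale, with limma adjusted p from 0.0254 to 0.03. Their groups did not overlap either.

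Hydin rose from 23.4, 23.3 and 24 FPKM in Con to 29.8, 29 and 29.8 in MNC (log2 difference 0.31, SE 0.0436, limma, adjusted p = 0.0175). Rsph14 was at 15.1, 14.9 and 12.5 FPKM in Con and 17.8, 18.5 and 16.9 in MNC (log2 difference 0.31, SE 0.0841, limma, adjusted p = 0.0488). The direction of the calls depended on the scaling. With the libraries centred on their medians, 5 genes were called, all higher in MNC (Tekt2, Rsph9, Hydin, Rsph14 and Dnah3) and 0 lower. With the GC trend removed, 6 were called higher and 2 lower. The shares of all genes called under these settings are not given here, so the counts do not single out the axoneme genes. Leaving out Con replicate 1 or 2 gave 0 calls, leaving out Con replicate 3 gave 4, and leaving out MNC replicate 2 or 3 gave 3 or 5. Hydin, Rsph14 and the 8 lower genes given with their differences kept their direction under all 14 alternatives, Hydin at 0.306 to 0.405 and Ccdc39 at -0.345 to -0.2.

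The other groups were set beside the same Con libraries, so these counts are not independent of each other. limma called 15 of the 42 genes in M1 against Con (13 lower, 2 higher), 9 in M3 (all lower) and 12 in M5 (all lower), beside 34.2%, 22.1% and 21.7% of all genes. Of all genes, 23.9%, 15.1% and 12.3% were called lower in these comparisons, and 10.3% higher in M1. Cfap74, Dnah12, Dnah2 and Dnah1 were called lower in all 4 comparisons with Con. The share of all genes called lower in all 4 was not counted. All 12 libraries of MNC, M1, M3 and M5 lay below all 3 Con libraries for 11 of the 42 genes, beside 11.5% of all genes, and above them for Rsph14, beside 6.25%. The 11 genes were Dnah8, Dnah17, Dnah12, Dnah2, Dnah1, Dnal1, Spag6l, Cfap65, Cfap74, Cfap54 and Ccdc39. For Dnah8 the Con libraries were at 372, 364 and 325 FPKM, while the 12 others ran from 195 to 314. Transcript length moved with this contrast as well, with a Spearman's rho of -0.429 between length and the difference of MNC from Con over the 42 genes and -0.094 over 13364 genes.

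Cell type markers differed between Con and the other groups. Summed elongating spermatid markers, 10 of 10 tested, were at 12381 to 23614 FPKM in Con and 24944 to 34520 in the other groups, and all 10 were higher in MNC than in Con, 5 of them called. Of 11 round spermatid markers, 9 were higher in MNC, with 5 called higher and 1 called lower. Of 13 spermatocyte markers, 8 were called lower and 1 higher in MNC. Of 10 Sertoli cell markers, 2 were called lower. These counts stand beside 12.4% of all genes called lower and 8.03% called higher. Epididymis markers, 1 of 10 with a mean of 1 FPKM or more, summed to 13.8 to 34.1 FPKM in Con, 1.21 to 21.4 in M3 and at most 1.3 in MNC, M1 and M5. Their part in the differences of the axoneme genes was not tested.

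Other genes of the pathway were taken from 3 lists. Of 71 further axoneme genes, 62 were matched and 61 tested. In M5 against MNC, 4 were called lower and 1 higher, beside 2.89% and 2.76% of all genes. The median log2 difference over the list was 0.00. The calls of the 3 lists were not followed through the alternative settings. Under several of these, such as GC removal, 0 of the 42 genes were called in this contrast. Dnaaf3, a dynein assembly factor, was at 28, 29.2 and 30.3 FPKM in M5 and 38.3, 42.5 and 41.5 in MNC (log2 difference -0.47, SE 0.0663, limma, adjusted p = 0.0207). Tcte1, of the nexin-dynein complex, fell by 0.41, Ropn1l, of the radial spoke, by 0.37 and Dnaaf5, another assembly factor, by 0.35 on the log2 scale. Cfap45, a protein inside the doublets, rose from 107, 112 and 99.7 FPKM in MNC to 131, 143 and 140 in M5, by 0.37 (limma, adjusted p = 0.0325). Dnaaf3, Tcte1 and Ropn1l were also called lower in M5 against M1, together with the dynein light chain gene Dynlrb2. Of all genes, 3.52% were called lower there.

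Of 10 transcription factors of ciliated cells, 7 were tested. Among them, 3 RFX genes were called lower in M5 than in MNC, beside 2.89% of all genes. Rfx2, a regulator of spermatid genes, was at 89.5, 90.1 and 83 FPKM in M5 and 105, 111 and 116 in MNC (log2 difference -0.34, SE 0.0622, limma, adjusted p = 0.0364). Rfx1 was at 21.8, 22.8 and 25.7 FPKM in M5 and 30.1, 33 and 32.1 in MNC (log2 difference -0.42, SE 0.0807, limma, adjusted p = 0.0389). Rfx4 was at 31.4, 28.6 and 29.2 FPKM in M5 and 39.6, 37.7 and 42.7 in MNC (log2 difference -0.41, SE 0.0714, limma, adjusted p = 0.0324). All 3 were also called lower in M5 against M1, beside 3.52% of all genes. M3 replicate 3 had the lowest value of its group in each, at 96.7, 23.2 and 32.4 FPKM for Rfx2, Rfx1 and Rfx4. Foxj1, the main activator of motile cilium genes, was at 32.8 to 39.4 FPKM in M5 and 35.9 to 40.7 in MNC, overlapping and not called. In MNC against Con, Rfx3 and Rfx4 were called higher, by 0.27 and 0.20, beside 8.03% of all genes called higher.

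Of 26 genes of intraflagellar transport, which carries tail proteins along the growing axoneme, 1 was called higher and 2 lower in M5 against MNC. Of all genes, 2.76% were called higher and 2.89% lower in that contrast. Ift20 was at 57, 56.8 and 58.7 FPKM in M5 and 39.3, 34.8 and 41.7 in MNC (log2 difference 0.57, SE 0.0764, limma, adjusted p = 0.0184), and its Con libraries lay between, at 48.1 to 52.6. Ift22 fell by 0.46 and the kinesin motor gene Kif17 by 0.36 on the log2 scale. In MNC against Con, 10 of the 26 were called lower and 2 higher, beside 12.4% and 8.03% of all genes. Ift46 was at -0.55 and Kif17 at 0.68. Kif17 was at 66.8 to 76.4 FPKM in Con, 111 to 116 in MNC and 83.7 to 92.1 in M5.

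**Figure D5:**
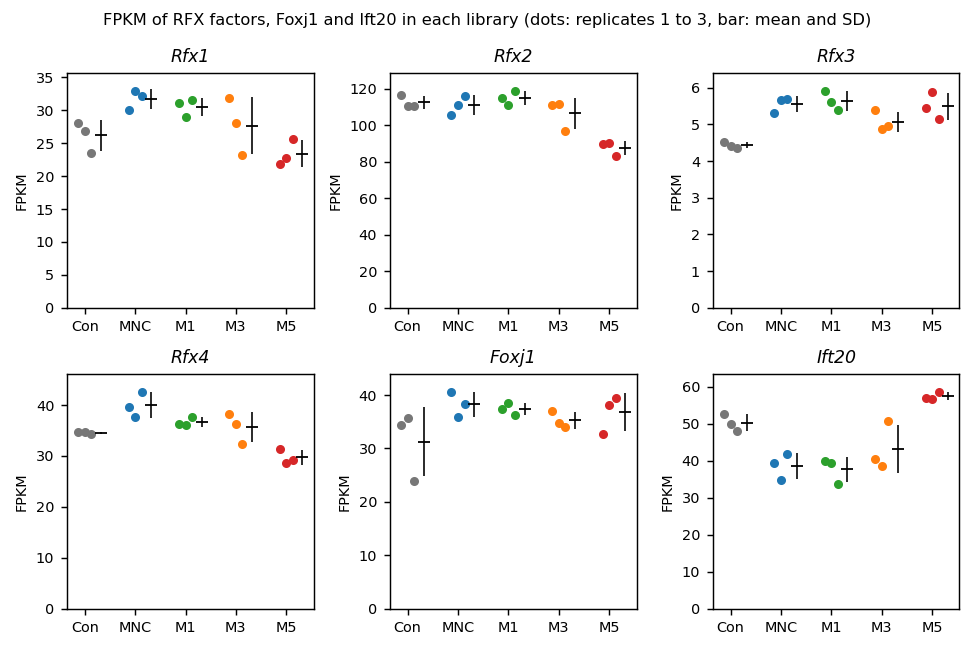
FPKM of 4 RFX factors, Foxj1 and Ift20 in each library, with dots for replicates 1 to 3 and a bar for the mean and SD. M5 lies below MNC for Rfx1, Rfx2 and Rfx4 and above it for Ift20, while Foxj1 and Rfx3 overlap.

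For a pair of radial spoke genes the libraries split within groups. These were singled out after their values were seen. Rsph1 was at 1711 and 1260.1 FPKM in MNC replicates 1 and 3 and at 553 to 735 in the 13 others, MNC replicate 2 among them. The MNC replicates 1 and 3 were above 1.5 times every other library for 17 genes tested, Rsph1 included. The log2 difference of Rsph1 between M1 and MNC was -1.28 without MNC replicate 2, -0.64 without MNC replicate 1 and -0.24 with Con as the control. Against Con, at 700 to 735 FPKM, Rsph1 was called in M1 (lower) but not in M3 or M5.

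Rsph9, of the radial spoke head (GRCm38, chr17:46122038-46144242), was at 62, 59.5, 48.2 and 49.6 FPKM in Con replicates 1 and 3 and M3 replicates 2 and 3. The 11 other libraries were at 79.4 FPKM or above, and so the split crossed the groups. It was shared by 11 genes tested, of which 10 have a name. Of these 10, 5 lie on chromosome 17, beside 4.98% of all genes with a name: Rsph9, Polr1c, H2-T22, Nrm and Rsph3a. Rsph9 set the pattern, so it is in the list by construction. The gap between the low and the other libraries was narrow for Polr1c, at 30.98 and 31.98 FPKM. It was wider for H2-T22, at 1.25 and 2.23, Nrm, at 6.21 and 9.72, and Rsph3a, at 111.8 and 135.2. The named genes on other chromosomes had narrow gaps, such as 2.3 and 2.31 for Cngb1. Rsph3a, another radial spoke gene, has a near-identical copy, Rsph3b, with 99.2% identity over 1823 bases. Rsph3a ran from 98.9 to 224 FPKM and Rsph3b from 12 to 145, with a Pearson r of -0.971 between them over the 15 libraries, given as a description. Their sum stayed between 205 and 244 FPKM, with a coefficient of variation of 5.17%, so the levels of the single copies are uncertain. The call of Rsph3b in MNC against Con, a log2 difference of -2.06, stands on values from 15.1 to 69.9 FPKM in MNC and 93.6 to 145 in Con.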

How the data were processed

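The authors deposited 1 table of FPKM values, to 2 decimals, for 15 libraries; per the study's methods, poly(A) RNA was sequenced on a HiSeq instrument and mapped with SOAPaligner, and the build in the labels is mm10. The methods name RPKM, the columns FPKM. The table lists 23510 IDs, of which 21143 (89.9%) matched RefSeq. Libraries were grouped by title; the description of M5 replicate 2 names another column. The labels say testis, their extraction text sperm.

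log2(FPKM + 1) of 14514 genes with a mean of 1 FPKM or more was fitted with limma 3.58.1 in R 4.3.3 (eBayes with trend), the 2 groups compared in each fit, two-sided; the study's own test needs counts. On simulated data of M5 against MNC, with 200 genes changed by 1 log2 unit, 76.0% were called and 4.0% of calls were false. Noise was drawn for each gene on its own, without a GC trend. The 4 genes called in M5 against MNC differed by less than 1 log2 unit, so these rates do not carry over to them. GC content, known for 92.1% of genes tested, came from the longest transcript. Transcripts were compared with blast 2.17.0 at 90% identity over 200 bases, since no protein table was used here.

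Members and lists were chosen with earlier results of these data known. Named genes are those called (at most 10 per comparison) or the 3 with the lowest p, the 5 highest and lowest by level, the highest of each role, the 5 with the largest ratio of group means and called genes of the lists (5 per comparison); Rsph9, Rsph3a, Rsph3b and the genes beside the threshold were added after their values were seen. Older symbols were matched after the data were seen. Of the red blood cell markers, 1 gene is not reported here.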

Additional observations from a re-analysis of the deposited data

Results flagged for a closer look

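The effects of the M5 and M1 knockdowns, both measured against the same MNC libraries, differed for 4 genes by the test of M5 against M1. The difference between them was -0.45 for Cfap65, -0.37 for Dnah2, -0.35 for Rsph6a and -0.24 for Tekt5 on the log2 scale, each lower in M5 (limma, adjusted p from 0.0183 to 0.0487, 3 libraries a group). All 3 M5 libraries lay below all 3 M1 libraries in each gene, as for 15% of all genes in that direction. Of all genes, 3.52% were called lower in M5 against M1. With the GC trend removed or the libraries centred on their medians, 0 of the 42 genes were called in this contrast. Groups of 3 are too small for a check of single samples that lie far from the others.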

How the results depend on the processing

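In M5 against MNC, 4 of the 42 genes were called. The count was 2 with a filter at 0.1 FPKM or with no filter, 0 with median centring or with the GC trend removed, 12 with all 5 groups in one fit and 12 with Con as the control. It ran from 0 to 4 when single libraries were left out, with 0 without M5 replicate 1 or 2 or MNC replicate 2 or 3, 2 with MNC replicate 1 left out and 4 with M5 replicate 3 left out. The 4 calls in M5 against M1 became 1 with a filter at 0.1 FPKM or none, 0 with centring or GC removal, 7 with all 5 groups in one fit, and 0 to 5 when single libraries were left out (0 without any one M1 library, 1 without M5 replicate 1 or 2, 5 without M5 replicate 3). The 14 calls in MNC against Con became 5 with centring, 8 with GC removal, and 0 to 10 when single libraries were left out (0 without Con replicate 1 or 2, 4 without Con replicate 3, 10, 3 and 5 without MNC replicates 1, 2 and 3). M1 and M3 against MNC had 0 calls, and 15 and 9 with Con as the control. M5 against M3 had 0 calls under every alternative run. Apart from Con as the control, the shares of all genes called under these alternatives are not given. A changed count there therefore cannot be set apart from a change over all genes.

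The median log2 difference over the 42 genes moved to -0.093 in M1 and -0.095 in M3 with Con as the control, to 0.044 in M3 with centring, and to 0.020 with centring and -0.008 with GC removal in MNC against Con. With Con as the control, Dnaaf2 in M5 turned to -0.021, Dnai1 in M1 to -0.095 and Hydin in M3 to 0.102. The cause of these changes was not tested; the GC correction used fewer genes, and leaving out a library leaves fewer samples.

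Replicate numbers are shared by the groups, but deviations of same-numbered libraries correlated from -0.399 to 0.193, over 0.1 in 5 of 30 pairs, so the numbers do not pair the samples. With the replicate number as a block, 0 of the 42 genes were called in each of the 6 comparisons. The planned comparison of protein sequences was not run. Dnah5 and Rsph4a, under the filter on low values, were not tested, and the depth behind their values is unknown.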
